A study of Mus musculus with 16 samples.

Results

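Gastrocnemius of Galgt2 transgenic mice was set against that of WT mice, in the 4 arrays of 16 in the series whose titles name Galgt2 transgenic or WT gastrocnemius without mdx. Galgt2, listed as B4galnt2 in current annotation, encodes a glycosyltransferase that adds a terminal N-acetylgalactosamine to sialylated glycans. In adult skeletal muscle the sugar it makes is concentrated at the neuromuscular and myotendinous junctions, and when the enzyme is made throughout the fibre it also modifies alpha-dystroglycan, the laminin-binding part of the dystrophin complex. The comparison described here asks which transcripts differ in otherwise normal gastrocnemius, a mainly fast calf muscle, when Galgt2 is overexpressed from a transgene, with no dystrophin mutation present. Both transgenic and wild-type mice were C57BL/6J males aged 2 months, and 25 ng of RNA was amplified per array. The labels used here do not name the promoter that drives the transgene or the number of founder lines, and nothing in them ties each replicate to a mouse of its own, so the p-values cover no more than the spread among these arrays, which may be technical. The other muscle arrays come from dystrophin-deficient males of the same age, namely mdx mice with the transgene (a C57BL/10J x C57BL/6J cross), mdx mice without it (C57BL/10J), and C57BL/10J mdx muscle injected with AAV-Galgt2 or with PBS on the other side. All of those mdx groups, controls included, lack dystrophin. There were 2 arrays per muscle group and 1 per cell line condition.

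Levels are log2 intensities of the brightest probe set that carries a single gene symbol, for 18194 genes, and changes are log2 fold changes, transgenic minus wild type, with the standard error from limma. A gene was called when its p-value, adjusted by Benjamini-Hochberg over all genes, was under 0.05. Median intensities were 62.7 and 59.5 on the transgenic arrays and 60.8 and 57.7 on the wild-type arrays, and replicates correlated at r of 0.985 in transgenic and 0.989 in wild-type muscle. The 10 markers of gastrocnemius fibres were high in both groups, with a median change of -0.06 and no call by limma (2 at an unadjusted p under 0.05). Among them was Ckm, the muscle creatine kinase, which read 12.63 and 12.74 in transgenic muscle, against 13.18 and 13.20 in wild type. Transgenic replicate 1 stood apart in 2 respects. Summed intensity of 16 neutrophil and mast cell genes was 13069 there and 1873 in transgenic replicate 2, against 1089 and 1212 in wild type, and the log2 ratio of the 3' to the 5' actin probe set was 1.46 and 0.84 in transgenic, against 0.88 and 1.01 in wild-type arrays. Among all muscle arrays the ratio was largest in transgenic mdx replicate 2, at 2.05, with 1.23 for Gapdh, against 0.18 to 0.48 for Gapdh on the other 11 muscle arrays. In mdx replicate 2, a library without the transgene by its label, B4galnt2 read 7.78, against 3.86 in mdx replicate 1.

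The transgene itself gave the largest change. B4galnt2 read 13.17 and 13.32 in transgenic muscle, against 4.61 and 4.94 in wild type. Both transgenic arrays stood far above both wild-type arrays (8.47 ± 0.91, adjusted p = 0.001). Of 4 probe sets for the gene, this was the only one called, and the other 3 lay between 3.26 and 4.45 on all 4 arrays. Dmd, which encodes dystrophin, read 11.16 and 10.98 in transgenic muscle, against 11.14 and 11.16 in wild type (-0.08 ± 0.20, adjusted p = 0.911), and its arrays overlapped.

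In all, 573 genes were called, 3.15% of those tested, of which 386 were higher in transgenic muscle (2.12%) and 187 lower (1.03%). The 4 arrays did not overlap between the groups for any called gene. Over all genes both transgenic arrays lay above both wild-type arrays in 20.5%, and below in 27.1%. Counts of called or separate members of the gene lists below are to be read against these shares. The median change of all genes was -0.05, and 44.6% were above 0. Large changes were mostly rises: 153 rises and 36 falls were at least 4-fold, and 56 rises and 8 falls at least 8-fold. Of the 386 risen genes 221 lay below the array median on both wild-type arrays. That median splits all genes evenly on each array, so the count alone does not set the risen genes apart. The count was 289 without transgenic replicate 1, 307 without replicate 2, 184 without wild-type replicate 1 and 193 without replicate 2. A core of 132 genes, 100 higher and 32 lower, was called the same way with each of the 12 muscle arrays left out in turn.

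**Figure D1:**
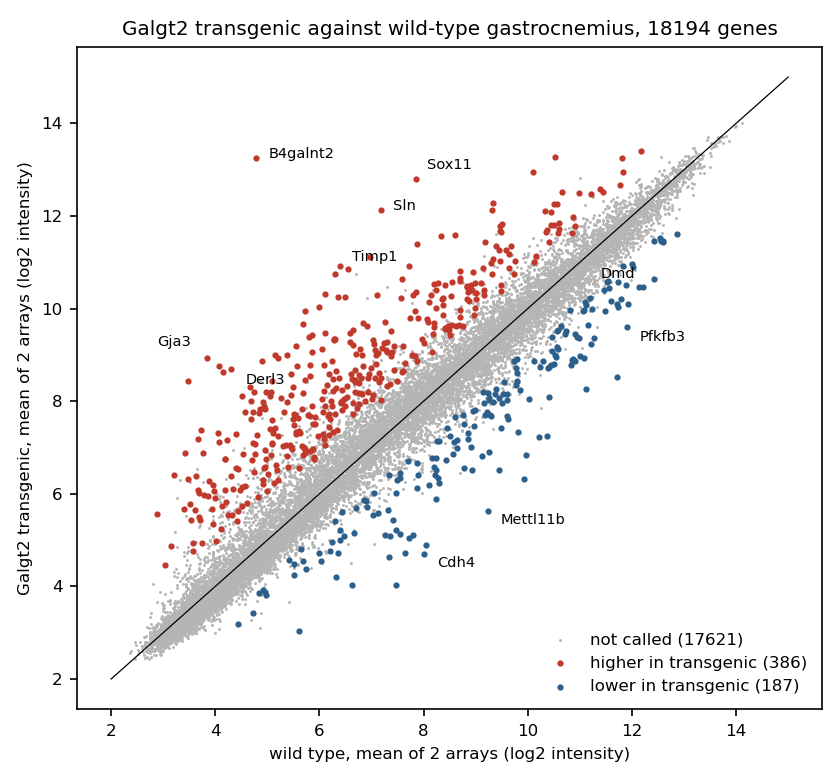
Mean log2 intensity of 18194 genes in Galgt2 transgenic (y axis, 2 arrays) against wild-type gastrocnemius (x axis, 2 arrays). Red points are the 386 genes called higher, blue points the 187 called lower, grey points the rest, and the line marks equal levels. B4galnt2 lies farthest above the line, and Dmd lies on it.

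Among the 20 largest rises, several genes are best known from tissues other than skeletal muscle, and their level in wild-type muscle was near the bottom of the array. Gja3, a connexin of the eye lens, read 9.09 and 8.77 in transgenic muscle, against 3.72 and 3.96 in wild type (5.09 ± 0.27, adjusted p = 2.51e-05). F2, which encodes prothrombin and is normally made in liver, read 8.60 and 8.94 in transgenic, against 4.00 and 4.15 in wild-type muscle (4.69 ± 0.28). Lce1f, a cornified envelope gene of skin, read 8.60 and 8.27, against 3.26 and 3.71 in wild type (4.95 ± 0.44). Together with Mt4, a metallothionein of stratified epithelium, and Derl3, these were the 5 risen genes that were above the median on both transgenic arrays and within the lower quartile of genes on both wild-type arrays. Mt4 read 8.98 and 8.27 in transgenic muscle, against 4.40 and 3.88 in wild type. Gja3 was higher by 1 of its 2 probe sets, the other reading 4.50 and 4.75 in transgenic, against 4.89 and 4.94 in wild-type muscle. All 5 kept their call with every one of the 12 arrays left out.

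The other large rises included genes of muscle calcium handling, development and the cytoskeleton. Sln, which encodes sarcolipin, an inhibitor of the sarcoplasmic reticulum calcium pump, read 12.46 and 11.80 in transgenic muscle, against 8.07 and 6.29 in wild type (4.95 ± 0.52), with both of its probe sets called. Sox11, a transcription factor of developing tissues, read 12.98 and 12.61, against 8.27 and 7.46 in wild type (4.93 ± 0.37), and all 6 of its probe sets were called. Timp1, an inhibitor of matrix proteases, read 10.78 and 11.08, against 6.55 and 6.23 in wild type (4.54 ± 0.48). In all 3 genes both transgenic arrays stood above both wild-type arrays by several log2 units. Uchl1, a ubiquitin hydrolase abundant in neurons, changed by 4.30 ± 0.45 and Anxa8, an annexin, by 4.23 ± 0.30. Krt18, a keratin of simple epithelia, read 8.97 and 9.01 in transgenic, against 5.31 and 4.995 in wild-type muscle (3.84 ± 0.58), and Sprr1a, a small proline-rich protein of cornifying epithelium, changed by 3.97 ± 0.26. Atp1b4, a muscle member of the family of sodium pump beta subunits, read 10.23 and 10.29 in transgenic muscle, against 6.37 and 6.60 in wild type (3.77 ± 0.47). Dtl, a substrate receptor of a ubiquitin ligase, changed by 3.97 ± 0.29 but was not called when its 6 probe sets were averaged, the change then being 0.87. Krt18 lost its call without wild-type replicate 2 (adjusted p = 0.0569).

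Among the called genes the largest fall was that of Mettl11b, a protein methyltransferase, which read 5.91 and 5.34 in transgenic muscle, against 9.27 and 9.22 in wild type (-3.62 ± 0.46, adjusted p = 0.00222). Ppp1r1a, an inhibitor of protein phosphatase 1, read 6.44 and 6.19, against 9.70 and 10.14 in wild type (-3.61 ± 0.35). Cdh4, a cadherin, read 4.79 and 4.60, against 7.999 and 8.03 in wild type (-3.32 ± 0.29). The transgenic levels of these 3 genes were all below both wild-type levels. Tafa4, which encodes a small secreted protein, was the 1 fallen gene within the lower quartile of genes on both transgenic arrays and above the median on both wild-type arrays, at 3.99 and 4.09 in transgenic, against 7.85 and 7.07 in wild-type muscle (-3.42 ± 0.49). Further falls were of Tiam1 (-3.12 ± 0.39), an activator of the small GTPase Rac, Aurka (-2.67 ± 0.25), a mitotic kinase, Kcng4 (-2.68 ± 0.30), a modifying subunit of voltage-gated potassium channels, and Neto2 (-2.60 ± 0.29), an auxiliary subunit of kainate receptors. Smox, which encodes spermine oxidase, read 8.56 and 7.95 in transgenic muscle, against 11.11 and 11.13 in wild type (-2.87 ± 0.63, adjusted p = 0.0363), and Dusp26, a phosphatase, changed by -2.94 ± 0.60. Both lost their call without any one of the 4 transgenic and wild-type arrays (adjusted p up to 0.183 for Smox and 0.157 for Dusp26). These values are of the brightest probe set, and the other Smox probe set gave -2.99 ± 0.33 in the limma fit of all single-symbol probe sets (adjusted p = 0.00159). The rise or fall of each of the 40 genes is shown per array in the plot of the largest changes.

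**Figure D2:**
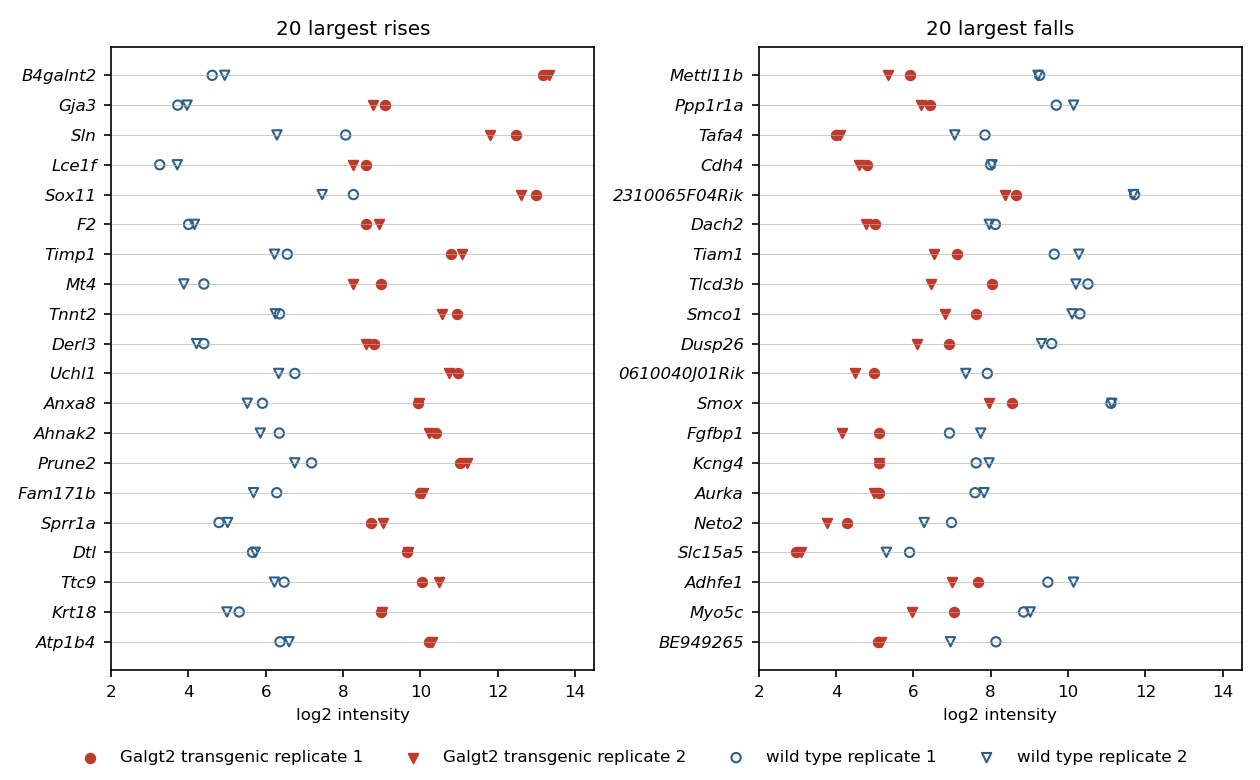
Log2 intensity on each of the 4 arrays for the 20 largest called rises (left) and the 20 largest called falls (right) of Galgt2 transgenic against wild-type gastrocnemius. Filled red symbols are transgenic arrays and open blue symbols wild-type arrays, with circles for replicate 1 and triangles for replicate 2. The groups are separate for every gene shown.

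Genes of the sarcomere before birth rose in part. Of 10 embryonic sarcomere genes 4 rose and 1 fell, with a median change of 0.58. Myh8, the neonatal myosin heavy chain, read 9.24 and 8.75 in transgenic muscle, against 5.09 and 5.65 in wild type (3.63 ± 0.40). Myh3, the embryonic heavy chain, read 9.83 and 8.86, against 6.19 and 6.36 in wild type (3.07 ± 0.53). Tnnt2, the cardiac troponin T that embryonic skeletal muscle also makes, read 10.95 and 10.55, against 6.36 and 6.25 in wild type (4.45 ± 0.43). Myl4, the atrial and embryonic myosin light chain, changed by 2.93 ± 0.37. Actc1, cardiac actin, went the other way at 11.90 and 11.31 in transgenic, against 12.81 and 12.92 in wild-type muscle (-1.26 ± 0.26). In transgenic mdx muscle Tnnt2 read 11.20 and 11.29, against 10.10 and 10.14 in mdx (1.13 ± 0.43, adjusted p = 0.156). Myh3 read 9.86 and 10.20 in transgenic mdx, against 10.32 and 10.42 in mdx (-0.34 ± 0.53, adjusted p = 0.801), and their arrays stood above both wild-type arrays with and without the transgene. Myh3 lost its call without wild-type replicate 1, wild-type replicate 2 or transgenic replicate 1 (adjusted p up to 0.0889), and Actc1 without either wild-type array or transgenic replicate 2 (up to 0.178).

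Regulators of new muscle and the fusogens of myoblasts were among the rises. Of 19 myogenic regulators 3 rose (15.8% called, against 3.15% of all genes, median 0.37), Sox11, Myog and Myf5. Myog, the myogenin that switches on differentiation genes, read 11.97 and 11.70 in transgenic muscle, against 9.87 and 9.15 in wild type (2.32 ± 0.46, adjusted p = 0.0226). Myf5, a marker of satellite cells and myoblasts, read 9.74 and 9.55, against 8.54 in both wild-type arrays (1.10 ± 0.22). Of 16 myoblast fusion genes 2 rose and 1 fell (18.75% called, median 0.53). The rises were of the 2 fusogens, Mymx at 9.70 and 8.70 in transgenic, against 5.95 and 5.15 in wild-type muscle (3.65 ± 0.60), and Mymk at 7.81 and 7.40, against 5.49 and 5.51 (2.10 ± 0.32). Kirrel3, an adhesion protein related to fly fusion receptors, changed by -1.14 ± 0.22 and lost its call without either wild-type array or transgenic replicate 1 (adjusted p up to 0.163). Among 13 satellite cell markers, Myf5 and the integrin Itga7 were called and the median was 0.74, while Pax7, the defining factor of these cells, gave 0.88 ± 0.35 (adjusted p = 0.278). Summed intensity of the satellite cell markers was 15248 and 13383 in transgenic, against 9672 and 9529 in wild-type muscle. In bulk muscle, more cells of a type and more RNA per cell cannot be told apart. Myog and Myf5 lost their call without any 1 of the 4 arrays (adjusted p up to 0.188 and 0.154), Mymx without wild-type replicate 2 or transgenic replicate 1 (up to 0.087), and Mymk without wild-type replicate 1 (0.0527).

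At the neuromuscular junction, calls fell on the receptor's delta and alpha subunits and on 1 organiser of the synapse. All 5 acetylcholine receptor subunits had both transgenic arrays above both wild-type arrays (20.5% of all genes did), and 2 were called (40%, against 3.15% of all genes, median 1.12). Chrnd, the delta subunit, read 7.76 and 8.04 in transgenic muscle, against 4.83 and 5.04 in wild type (2.96 ± 0.31), and Chrna1, the alpha subunit, read 10.29 and 10.83, against 8.18 and 8.36 in wild type (2.29 ± 0.38). The fetal gamma subunit Chrng gave 1.12 ± 0.34 and the adult epsilon subunit Chrne 1.10 ± 0.31, neither called (adjusted p = 0.13 and 0.096). Of 18 synaptic organisers only Nes, which encodes nestin, was called (2.04 ± 0.47, median of the list 0.36), and the receptor kinase Musk gave 0.96 ± 0.25 (adjusted p = 0.081). In the limma fit of all single-symbol probe sets, another Nes probe set gave 2.22 ± 0.29 (adjusted p = 0.00387). A further Nes probe set gave 1.66 ± 0.41 (adjusted p = 0.0700). Of 19 genes of denervation and atrophy 4 rose and 1 fell (median 0.43). Cdkn1a, the cell cycle inhibitor p21, read 12.17 and 12.07 in transgenic, against 9.55 and 9.09 in wild-type muscle (2.80 ± 0.30), and Mt2, a metallothionein, read 12.81 and 13.10, against 9.47 and 10.72 (2.86 ± 0.42). Eda2r, a receptor of the tumour necrosis factor family, changed by 1.52 ± 0.26. Dach2, a corepressor that holds down Myog in innervated mouse muscle, read 5.02 and 4.76 in transgenic muscle, against 8.12 and 7.97 in wild type (-3.15 ± 0.41). The ubiquitin ligases of atrophy were not called, Trim63 at 0.10 ± 0.25 and Fbxo32 at -0.29 ± 0.53. Chrnd, Cdkn1a, Mt2 and Dach2 kept their call with each of the 12 arrays left out, Chrna1 lost it without either wild-type array or transgenic replicate 2 (adjusted p up to 0.0855), Eda2r without wild-type replicate 2 or transgenic replicate 1 (up to 0.103), and Nes without any 1 of the 4 (up to 0.251).

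Slow fibre genes rose in 3 of 13 cases with a median of 0.47, and fast fibre genes gave 1 fall among 16 with a median of -0.09. Tnni1, slow troponin I, read 11.30 and 11.57 in transgenic muscle, against 9.30 and 9.07 in wild type (2.25 ± 0.29). Casq2, the cardiac and slow calsequestrin, read 12.51 and 11.99, against 10.82 and 10.18 in wild type (1.75 ± 0.28). Tnnt1, slow troponin T, read 13.06 and 13.73, against 11.90 and 12.43 in wild type (1.23 ± 0.29, adjusted p = 0.0487). Myh7, the slow myosin heavy chain, read 12.73 and 12.50, against 12.39 and 11.90 (0.47 ± 0.39, adjusted p = 0.67). The fast fall was of Mylk2, the kinase of fast myosin light chain, at 8.90 and 9.27 in transgenic, against 10.24 and 10.69 in wild-type muscle (-1.38 ± 0.24), and the fast calcium pump Atp2a1 gave -0.16 ± 0.18. Sln and Casq2 were the only 2 of 22 calcium handling genes called (median -0.07). Tnni1 kept its call with each of the 12 arrays left out. Casq2 and Mylk2 lost theirs without wild-type replicate 2 or transgenic replicate 1 (adjusted p up to 0.0794 and 0.128), and Tnnt1 in 11 of the 12 cases (up to 0.307).

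Among genes of the membrane skeleton and its attachments, calls fell on the costamere and integrin lists. By brightest probe set, no gene of the dystrophin complex was called. Nor was any gene of the O-mannose pathway that builds the laminin-binding sugar of dystroglycan. The 17 dystrophin complex genes had a median of 0.17 and 3 were under an unadjusted p of 0.05. Dag1, which encodes dystroglycan, read 11.72 and 12.07 in transgenic, against 11.59 and 11.64 in wild-type muscle (0.28 ± 0.21, adjusted p = 0.624), and Utrn, utrophin, gave 0.27 ± 0.30 (adjusted p = 0.768). The smallest p-values were of Cav3, the muscle caveolin, at 1.12 ± 0.41, and Capn3, the muscle calpain, at -1.02 ± 0.38 (adjusted p = 0.220 and 0.232). Another Capn3 probe set read 9.15 and 9.37 in transgenic, against 10.12 and 10.66 in wild-type muscle (-1.13 ± 0.24). It was called lower in the limma fit of all single-symbol probe sets (adjusted p = 0.0416). The 13 O-mannosylation genes had a median of 0.05 and 2 under an unadjusted p of 0.05, led by Gmppa at 0.90 ± 0.28 (adjusted p = 0.147). Of 26 genes of the costamere and the stretch response 3 rose and 1 fell (15.4% called, against 3.15% of all genes, median 0.30): Fhl2 at 8.45 and 8.48 in transgenic, against 6.09 and 6.42 in wild-type muscle (2.21 ± 0.24), Hspb7, a small heat shock protein of muscle (1.81 ± 0.36), Csrp3, the muscle LIM protein (1.44 ± 0.32), and Ankrd23 (-1.004 ± 0.23), a titin-binding ankyrin repeat protein. In 15 of the 26 both transgenic arrays stood above both wild-type arrays (20.5% of all genes did). In 5 they stood below (27.1% of all genes), and 12 were under an unadjusted p of 0.05. Of 23 laminin, agrin and integrin genes 3 rose, all integrin alpha chains (median 0.08), namely Itga5 (1.39 ± 0.25), a fibronectin receptor, Itga9 (1.28 ± 0.24) and Itga7 (1.05 ± 0.24), the laminin receptor of muscle fibres. Fhl2 kept its call with each of the 12 arrays left out, and Hspb7, Csrp3, Ankrd23, Itga5, Itga9 and Itga7 each lost theirs without at least 3 of the 4 transgenic and wild-type arrays (adjusted p up to 0.277).

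Of 31 terminal glycosyltransferase and sialic acid genes 4 rose, B4galnt2 and 3 others, and none fell (median 0.09). St6galnac4, a sialyltransferase, read 8.14 and 9.02 in transgenic muscle, against 6.59 and 6.62 in wild type (1.98 ± 0.34). St8sia2, which makes polysialic acid, read 6.35 and 5.81, against 4.10 and 4.30 in wild type (1.89 ± 0.44, adjusted p = 0.0479), and Nans, which makes sialic acid, changed by 1.01 ± 0.23. St6galnac4 lost its call without either wild-type array or transgenic replicate 2 (adjusted p up to 0.0816), and St8sia2 and Nans without any 1 of the 4 arrays (up to 0.252 and 0.302).

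In the extracellular matrix list 4 of 33 genes rose (12.1% called, against 3.15% of all genes, median 0.54). In 24 both transgenic arrays stood above both wild-type arrays (20.5% of all genes did). Apart from Timp1 the steps were small, with Tgfb3, a growth factor, at 0.97 ± 0.19, Col18a1, a basement membrane collagen, at 0.95 ± 0.21, and Col6a3, at 11.64 and 11.62 in transgenic, against 10.89 and 10.80 in wild-type muscle, at 0.78 ± 0.18. Of 20 annexins and membrane repair genes 5 rose and none fell (median 0.78). S100a4, a calcium-binding protein of motile cells, read 13.35 and 13.21 in transgenic muscle, against 10.79 and 10.24 in wild type (2.76 ± 0.25). Anxa4 changed by 1.86 ± 0.24, S100a13 by 1.74 ± 0.21 and S100a6 by 1.13 ± 0.22. Timp1, Anxa8, S100a4, Anxa4 and S100a13 kept their call with each of the 12 arrays left out, while Tgfb3, Col18a1, Col6a3 and S100a6 lost theirs without any 1 of the 4 transgenic and wild-type arrays (adjusted p up to 0.298).

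Chaperones of the endoplasmic reticulum rose in 7 of 27 cases (25.9% called, against 3.15% of all genes) and none fell (median 0.83). In 24 both transgenic arrays stood above both wild-type arrays (20.5% of all genes did). When unfolded proteins accumulate in that compartment, the factors ATF6 and XBP1 switch such genes on through a promoter element, while the integrated stress response acts through ATF4. Derl3, a factor that moves misfolded proteins out for degradation, read 8.80 and 8.58 in transgenic muscle, against 4.40 and 4.21 in wild type (4.38 ± 0.31). Creld2, a disulfide isomerase, read 9.83 and 9.58, against 7.43 and 7.10 in wild type (2.44 ± 0.30), and Sdf2l1 read 8.48 and 9.04, against 5.28 and 5.85 (3.20 ± 0.49). Both transgenic arrays were above both wild-type arrays in each. Manf, a secreted stress protein, changed by 1.97 ± 0.33, Hyou1, a chaperone, by 1.66 ± 0.28, and Hsp90b1, the HSP90 of the compartment, by 1.55 ± 0.32. Hspa5, the main chaperone BiP, read 12.58 and 12.59 in transgenic, against 11.39 and 11.41 in wild-type muscle (1.19 ± 0.22). Derl3 and Creld2 kept their call with each of the 12 arrays left out. Sdf2l1 lost it without wild-type replicate 1 (adjusted p = 0.0693), Manf and Hyou1 without 3 of the 4 arrays (up to 0.0834 and 0.0846), and Hsp90b1 and Hspa5 without any 1 of them (up to 0.216 and 0.113).

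Promoter sequence is shown for the 3 called chaperone genes of largest change whose promoter holds the endoplasmic reticulum stress element, searched as CCAAT, any 9 bases, then CCACG on both strands in the 250 bases before the gene start. Capitals mark the match, and the sequences are from RefSeq, build GRCm38.p6, 5' to 3' on the gene's strand.
Derl3 (chr10:75893202-75893300, plus strand): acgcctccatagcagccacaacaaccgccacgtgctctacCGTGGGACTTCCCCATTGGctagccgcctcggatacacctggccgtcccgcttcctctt
Creld2 (chr15:88819480-88819578, plus strand): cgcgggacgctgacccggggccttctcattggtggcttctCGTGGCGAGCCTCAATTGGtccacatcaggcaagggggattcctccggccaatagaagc
Hsp90b1 (chr10:86705598-86705694, minus strand): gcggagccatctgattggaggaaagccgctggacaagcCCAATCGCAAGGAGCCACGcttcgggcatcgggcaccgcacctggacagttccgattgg
The element was present in 10 of the 23 list members with a promoter (43.5%), in 4 of the 5 called and 6 of the 18 uncalled ones, against 0.131% of 14453 measured genes with a promoter. In Derl3 and Creld2 the match lies on the opposite strand. A further match for Hsp90b1, at -107 from the gene start on the opposite strand, lies outside the bases shown. A match is a description of the letters and not of binding.

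Of 26 integrated stress response genes 4 rose and none fell (median 0.61). Psat1, of serine synthesis, read 11.43 and 11.70 in transgenic muscle, against 8.11 and 8.55 in wild type (3.23 ± 0.40), and Mthfd2, of mitochondrial folate metabolism, read 10.43 and 10.58, against 8.38 and 8.45 (2.09 ± 0.22). Trib3, a pseudokinase, changed by 2.05 ± 0.31 and Ddit3, the transcription factor CHOP, by 2.07 ± 0.48. The ATF4 element of this response was searched as TGATGNAA on both strands, in the 250 bases before the gene start only. It was present in 8 of 23 members with a promoter (34.8%), 0 of the 4 called and 8 of the 19 uncalled ones, against 2.84% of genes. Elements outside those bases were not searched. The 34 secretory pathway and N-glycosylation genes gave no call (median 0.27, 7 under an unadjusted p of 0.05), nor did the 11 heat shock genes of the cytosol (1 under it). Arfgap3, of vesicle transport, gave 1.51 ± 0.39 (adjusted p = 0.0727). Psat1 and Mthfd2 kept their call with each of the 12 arrays left out, Trib3 lost it without wild-type replicate 2 or transgenic replicate 1 (adjusted p up to 0.0597), and Ddit3 without 10 of the 12 (up to 0.290).

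Interferon-induced genes rose in 9 of 31 cases, all 31 changes were above 0, and the median was 1.04. Type I interferon acts on these genes through the STAT and IRF factors of its receptor. Cxcl10, a chemokine that draws T cells, read 8.29 and 7.86 in transgenic muscle, against 4.97 and 5.57 in wild type (2.81 ± 0.34). Rsad2, the antiviral protein viperin, read 12.05 and 11.25, against 9.32 and 9.64 in wild type (2.17 ± 0.34). Ifih1, a sensor of double-stranded RNA, read 11.06 and 9.52, against 7.86 and 7.73 (2.49 ± 0.43), and Mx1, an antiviral GTPase, 7.70 and 7.10, against 4.71 and 5.41 (2.34 ± 0.40). In all 4 genes transgenic replicate 1 was the highest array. Oasl1 changed by 2.96 ± 0.69, Ifit1 by 2.12 ± 0.44, Stat2 by 1.08 ± 0.25, Oas2 by 1.07 ± 0.20 and Rtp4 by 1.04 ± 0.18. Summed intensity of the list was 23519 and 13061 in transgenic, against 9696 and 8779 in wild-type muscle. Called members numbered 2 without transgenic replicate 1, 7 without replicate 2, 1 without wild-type replicate 1 and 4 without replicate 2, and the median was 0.80 without transgenic replicate 1. Cxcl10 kept its call with each of the 12 arrays left out.

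The interferon-stimulated element, searched as GAAA, any 2 bases, then GAAA on both strands, stood in the promoter of 13 of 23 members with one (56.5%), 4 of the 6 called and 9 of the 17 uncalled, against 3.13% of genes. The promoters of the 3 called genes of largest change that hold it are shown with each match in capitals, from the same RefSeq table and build.
Cxcl10 (chr5:92349053-92349139, minus strand): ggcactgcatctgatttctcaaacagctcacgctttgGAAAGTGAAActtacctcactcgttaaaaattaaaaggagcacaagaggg
Rsad2 (chr12:26456523-26456612, minus strand): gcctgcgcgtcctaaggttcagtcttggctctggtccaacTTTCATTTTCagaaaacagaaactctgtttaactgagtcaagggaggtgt
Ifit1 (chr19:34640745-34640834, plus strand): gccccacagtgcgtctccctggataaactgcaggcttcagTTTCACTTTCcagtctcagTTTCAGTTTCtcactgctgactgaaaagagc
The match reads along the gene's strand in Cxcl10 and on the opposite strand in Rsad2 and Ifit1, Ifit1 holding a pair of matches.

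Of the markers of other cell types, those of macrophages rose in 5 of 29 cases with none lower (17.2% called, against 3.15% of all genes, median 1.01). Changes were above 0 in 25 of the 29, the lowest was -0.43, and 14 were under an unadjusted p of 0.05. In 20 both transgenic arrays stood above both wild-type arrays (20.5% of all genes did), and in 3 below (27.1%). Lgals3, galectin-3, read 11.25 and 10.60 in transgenic muscle, against 8.19 and 7.25 in wild type (3.20 ± 0.43). Ms4a7 changed by 1.77 ± 0.25, Cd84 by 1.67 ± 0.28, Ctss, a lysosomal protease, by 1.33 ± 0.25 and Tyrobp, a signalling adaptor, by 1.16 ± 0.27. Summed intensity of the 29 markers was 26687 and 17256 in transgenic, against 11950 and 11782 in wild-type muscle. Other defining markers were present in both groups and not called, among them Csf1r, the growth factor receptor of these cells, at 11.79 and 10.19 in transgenic, against 11.15 and 10.20 in wild-type muscle (0.31 ± 0.50, adjusted p = 0.848). The resident macrophage scavenger receptor Cd163 read 9.89 and 9.81, against 10.01 and 10.55 (-0.43 ± 0.23, adjusted p = 0.456). Without transgenic replicate 1 the called macrophage genes numbered 2, and without replicate 2 they numbered 7, with medians of 0.66 and 1.43. Without wild-type replicate 1 only 1 was called, and without wild-type replicate 2 there were 2, while Lgals3 kept its call with each of the 12 arrays left out.

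No neutrophil or mast cell gene of 16 was called by limma, and 6 were under an unadjusted p of 0.05. The median change of the list was 0.55, with 0.21 and no call without transgenic replicate 1 and 1.44 and 5 calls without transgenic replicate 2. The neutrophil granule gene Ngp read 10.19 and 6.66 in transgenic, against 4.66 and 5.08 in wild-type muscle (3.56 ± 0.86, adjusted p = 0.0562) and Camp, a granule antimicrobial peptide, 8.34 and 5.55, against 4.23 and 4.46 (2.60 ± 0.71). In both genes replicate 1 made most of the difference. Of 16 antigen presentation genes the class II genes H2-Eb1 (1.21 ± 0.22) and H2-Aa (0.90 ± 0.19) rose, with a median of 0.48, and lost their call without at least 3 of the 4 arrays (adjusted p up to 0.128 and 0.245). Of 16 lymphocyte markers Klrd1, a receptor of killer cells, rose at 6.14 and 5.21 in transgenic, against 3.80 and 4.07 in wild-type muscle (1.74 ± 0.37), as did Ccl5, a chemokine of T cells, among 21 chemokine and cytokine genes (2.32 ± 0.54). Their transgenic replicate 1 was again the higher array, and without it the changes were 1.27 for Klrd1 and 1.33 for Ccl5. Both lost their call without that array and without either wild-type array. Ccl5 also lost it without each of 8 other muscle arrays. The part of leukocyte content and of replicate 1 in the interferon and macrophage results was not tested.

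**Figure D3:**
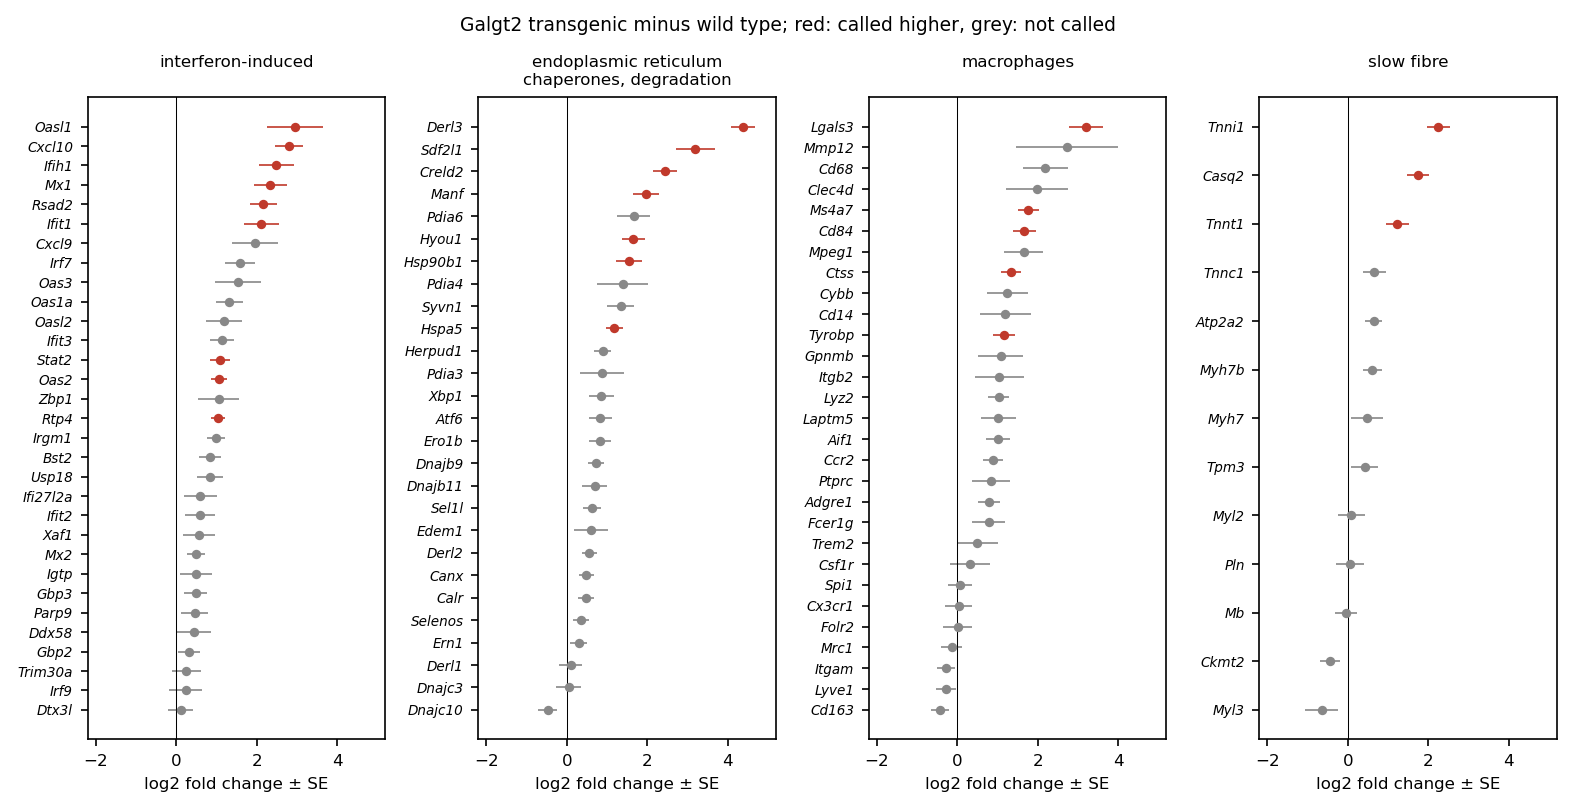
Log2 fold change, Galgt2 transgenic minus wild type, with its standard error (bars, limma) for every measured member of 4 lists. Red points passed an adjusted p of 0.05 and grey points did not. All 31 interferon-induced genes lie above 0, with 9 called, against 7 of 27 for the endoplasmic reticulum, 5 of 29 for macrophages and 3 of 13 for slow fibres.

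Endothelial markers had the lowest median of all lists, -0.47, with 18 of 19 below 0, none called by limma and 4 under an unadjusted p of 0.05. Tek, an angiopoietin receptor, read 10.61 and 10.12 in transgenic, against 11.45 and 11.22 in wild-type muscle (-0.97 ± 0.27, adjusted p = 0.0944), and Kdr, a receptor of vascular growth factor, gave -0.997 ± 0.37 (adjusted p = 0.232). Summed intensity of the list was 9134 and 8847 in transgenic, against 13539 and 13892 in wild-type muscle. The pericyte proteoglycan Cspg4 was the only called gene of 12 in the smooth muscle and pericyte list (1.34 ± 0.22), and Cilp, a cartilage and tendon matrix protein, the only one of 11 in the tendon list, at 11.85 and 11.73 in transgenic, against 9.70 and 9.25 in wild-type muscle (2.31 ± 0.23). No marker of fibroblasts, adipocytes, Schwann cells or red blood cells was called by limma, and 2 of fibroblasts, 2 of adipocytes and 0 of the others were under an unadjusted p of 0.05. Summed intensity of fibroblast markers was 29429 and 28256 in transgenic, against 24574 and 25333 in wild-type muscle. Cspg4 lost its call without either wild-type array or transgenic replicate 2 (adjusted p up to 0.0888).

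Epithelial transcripts rose in a small number of genes. Of 16 epidermis markers 3 rose and 1 fell (median -0.12): Lce1f, Sprr1a, Trp63, the factor p63 of stratified epithelium, at 10.10 and 10.32 in transgenic, against 8.63 and 9.02 in wild-type muscle (1.38 ± 0.27), and Krtdap, a keratinocyte protein, at -1.48 ± 0.30. Of 21 desmosome and tight junction genes 2 rose (median 0.08), Dsp, which encodes desmoplakin, at 7.58 and 6.73 in transgenic, against 4.20 and 4.26 in wild-type muscle (2.93 ± 0.48), and Pkp1, a plakophilin, at 6.39 and 6.40, against 3.91 and 4.71 (2.08 ± 0.38). In transgenic mdx muscle Dsp stood higher still, at 9.23 and 9.53, against 3.36 and 3.19 in mdx (6.11 ± 0.48). Summed intensity of the epidermis markers was 2389 and 2735 in transgenic, against 1007 and 1184 in wild-type muscle, and their part in these results was not tested. Trp63 and Krtdap lost their call without any 1 of the 4 arrays (adjusted p up to 0.172 and 0.178), and Dsp and Pkp1 without 3 of them (up to 0.076 and 0.130).

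In energy use, all but 1 of 36 respiratory chain subunits were below 0, the median was -0.17 and none was called by limma, with 1 under an unadjusted p of 0.05. Among 23 glycolysis and glycogen genes 1 rose and 2 fell (median -0.20). Pfkfb3, which makes the activator of phosphofructokinase, read 9.98 and 9.24 in transgenic muscle, against 11.74 and 12.07 in wild type (-2.30 ± 0.26), and Gpd1, a glycerol phosphate dehydrogenase, 9.66 and 10.41, against 11.42 and 12.05 (-1.70 ± 0.39). Hk1, a hexokinase of most tissues, read 8.83 and 8.59, against 7.01 and 6.95 (1.73 ± 0.35). Angptl4, an inhibitor of lipoprotein lipase, was the only one of 25 fatty acid genes called (2.02 ± 0.40), and in amino acid and creatine metabolism Gamt, which makes creatine, rose (1.76 ± 0.38) beside the fall of Smox. Hlf, a clock-controlled transcription factor, read 6.68 and 6.45, against 8.73 and 8.81 in wild type (-2.21 ± 0.31), the only call among 17 circadian genes (median -0.32). Scn4b, a sodium channel beta subunit, and Kcnc1, a potassium channel of fast-firing cells, fell by 1.15 and 1.37 in a list of 21 excitability genes in which Gja3 rose. Pfkfb3 and Hlf kept their call with each of the 12 arrays left out, and Gpd1, Hk1, Angptl4, Scn4b and Kcnc1 lost theirs without any 1 of the 4 transgenic and wild-type arrays (adjusted p up to 0.297). Gamt lost its call without either wild-type array or transgenic replicate 2 (up to 0.230).

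Of 28 cell cycle genes 2 rose and 1 fell (10.7% called, against 3.15% of all genes): Cdkn1a, Cks2, a partner of cyclin-dependent kinases (1.75 ± 0.41), and Aurka. In 17 of the 28 both transgenic arrays stood above both wild-type arrays (20.5% of all genes did), 11 were under an unadjusted p of 0.05, and the median change was 0.66, or 0.32 without transgenic replicate 1. Igfbp3, a carrier of insulin-like growth factors, was the only call among 22 genes of the growth factor list, at 7.60 and 7.23 in transgenic, against 8.49 and 8.42 in wild-type muscle (-1.04 ± 0.24). Of 10 genes known from the early mouse embryo, AF067061 rose (2.26 ± 0.18). By limma no gene passed among 24 lysosome and autophagy genes, 25 proteasome genes, 24 ribosomal protein genes and 18 immediate early genes, with 6, 0, 1 and 6 under an unadjusted p of 0.05. Igfbp3 and Cks2 lost their call without any 1 of the 4 arrays (adjusted p up to 0.248 and 0.258).

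**Figure D4:**
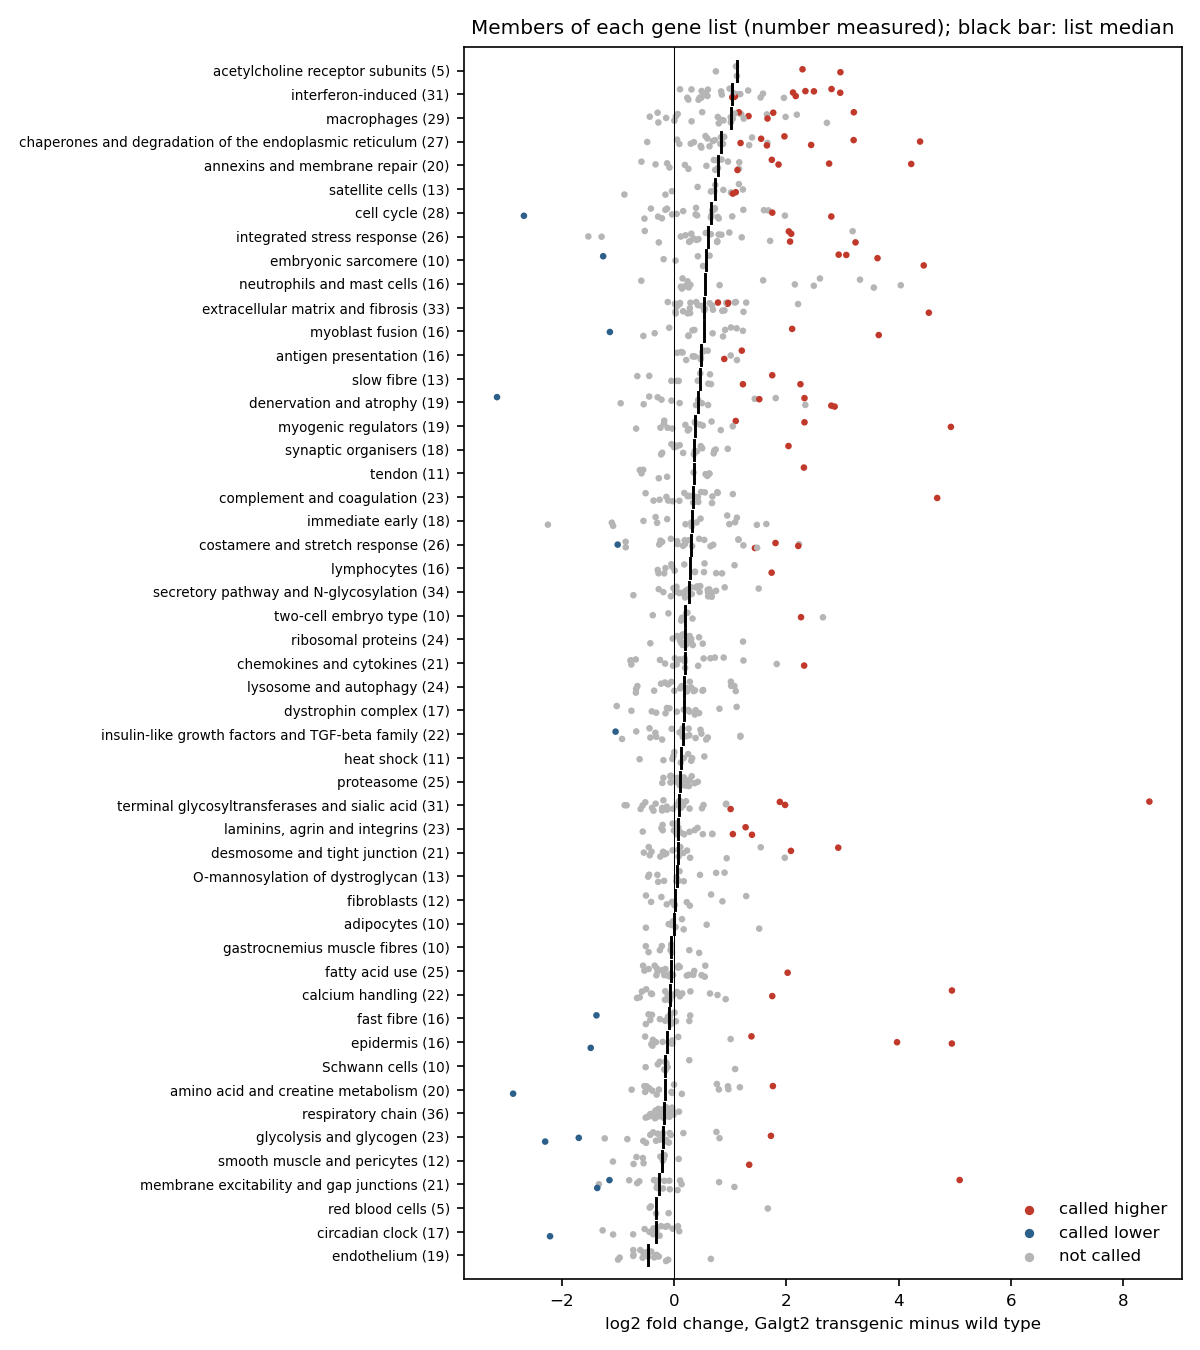
Log2 fold change, Galgt2 transgenic minus wild type, of each member of 51 gene lists, ordered from the highest to the lowest list median (black bars). Red points are called higher, blue points called lower and grey points not called, and the number of measured genes follows each name. Acetylcholine receptor subunits (1.12) and interferon-induced genes (1.04) are at the top, and endothelium (-0.47) is at the bottom.

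The arrays of mdx muscle with and without the transgene share no array with the comparison above, so they give a Galgt2 transgene in other samples. The spread of each gene was estimated from all muscle arrays together, so both comparisons share it (standard error 0.27 for Gja3 in each). Counts of genes called in both are therefore not independent. Leaving out mdx replicate 1 or mdx replicate 2 gave 653 calls in transgenic against wild-type muscle, against 573 with all muscle arrays. The transgenic mdx mice are a substrain cross and the mdx mice are C57BL/10J, so transgene and substrain cannot be told apart in that comparison. There 1107 of 18194 genes were called (6.08%), 723 higher and 384 lower. Of the 386 rises 346 were above 0 in transgenic mdx minus mdx muscle (89.6%, against 49.0% of all genes), with a median of 1.12, and of the 187 falls 158 were below 0 (84.5%), with a median of -0.80. Called in both were 184 of the rises, 47.7% of the 386 and 25.5% of the 723 called higher in mdx muscle, and 65 of the falls, 34.8% of the 187 and 16.9% of 384. Without mdx replicate 2 the counts were 341, 154, 144 and 34, in the order rises above 0, falls below 0, rises called and falls called, and without mdx replicate 1 they were 345, 161, 154 and 67. Without transgenic mdx replicate 2, the array with the high 3' to 5' ratios, they were 343, 160, 116 and 39, and without transgenic mdx replicate 1 they were 346, 149, 140 and 34. Gja3 read 9.19 and 9.26 in transgenic mdx, against 4.05 and 4.06 in mdx muscle, a change of 5.17 ± 0.27. F2 (4.09 ± 0.28), Derl3 (4.52 ± 0.31), Anxa8 (3.69 ± 0.30) and Pfkfb3 (-2.25 ± 0.26) likewise gave changes near their values in normal muscle. Timp1, at 11.14 and 10.58 in transgenic mdx, against 10.38 and 10.20 in mdx muscle, gave 0.57 ± 0.48 there (adjusted p = 0.579). Mymx read 8.60 and 10.13 in transgenic mdx, against 10.04 and 10.72 in mdx muscle (-1.02 ± 0.60).

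**Figure D5:**
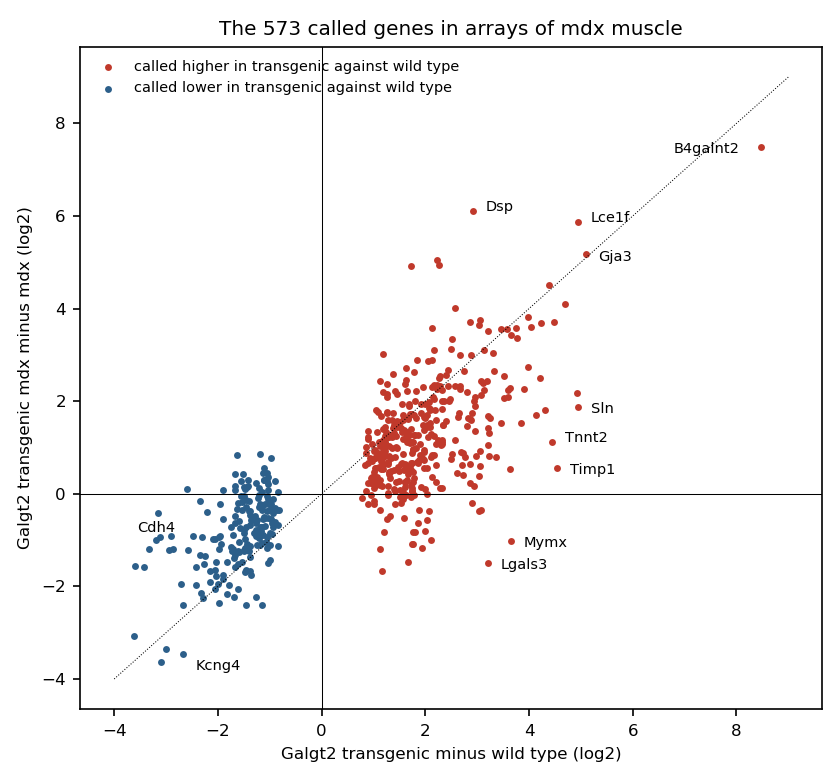
Log2 fold change of the 573 called genes in Galgt2 transgenic against wild-type muscle (x axis) and, in other arrays, in Galgt2 transgenic mdx against mdx muscle (y axis), with the dotted line marking equal change. Of the 386 red genes (called higher) 346 lie above 0 on the y axis, and of the 187 blue genes (called lower) 158 lie below 0. Lgals3 and Mymx lie below 0 on the y axis.

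A formal test of the transgene's change in mdx minus its change in normal muscle called 8 of 18194 genes (0.044%). For 4 of them, all macrophage markers, the change was above 0 in normal and below 0 in mdx muscle. Lgals3 read 10.91 and 11.05 in transgenic mdx, against 12.49 and 12.46 in mdx muscle (-1.50 ± 0.43, difference -4.70, adjusted p = 0.0374). Cd84, Ms4a7 and Tyrobp differed by -3.13, -2.85 and -2.82. For the other 4 the change was larger in mdx muscle. AF067061 read 9.57 and 9.67 in transgenic mdx, against 4.64 and 4.73 in mdx muscle (difference 2.67, adjusted p = 0.0107). Muc15, a membrane mucin, read 8.17 and 7.79, against 2.93 and 3.18 in mdx (3.21), and the transgenic minus wild-type change of Kcnj3, a potassium channel, and Tcstv1 was not called. Without mdx replicate 2, Kcnj3, Lgals3 and Ms4a7 missed the threshold (adjusted p = 0.0761, 0.0719 and 0.071), and no gene of all 18194 passed without either wild-type array or with the replicate number as a block. None of the 4 macrophage markers passed without transgenic replicate 1 (3 calls, all higher), transgenic mdx replicate 1, transgenic mdx replicate 2 or either AAV-Galgt2 array. Substrain differs between the normal and the mdx mice and between mdx mice with and without the transgene, and its part in these differences cannot be told apart.

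In mdx muscle given AAV-Galgt2, B4galnt2 read 10.54 and 10.56, against 5.27 and 4.26 on the PBS-injected side (5.78, adjusted p = 0.233). No gene was called there by limma (0%), and 1506 were under an unadjusted p of 0.05. That test took the AAV-Galgt2 and PBS arrays as unpaired groups, and any pairing of the sides of a mouse was not used. Of the 386 rises 270 were above 0 (69.9%, against 54.2% of all genes) with a median of 0.17, and of the 187 falls 72 were below 0 (38.5%) with a median of 0.09. Gja3 gave 0.07, Sln -0.09, Lce1f -0.03, Sox11 0.37, Derl3 0.25 and Pfkfb3 0.63. In the C2C12 cells stably carrying Galgt2, with 1 array per condition and hence no test, 159 of the 386 were above 0 in myoblasts (41.2%, against 61.5% of all genes) and 209 in myotubes (54.1%, against 49.5%). The route of delivery, the array set and the substrain of the Galgt2 mice differ together from the transgenic mdx comparison, and their parts cannot be told apart.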

How the data were processed

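The series measured RNA from mouse gastrocnemius and C2C12 cells on 16 arrays of 45101 probe sets. The authors deposited linear intensity values per probe set, made with GCOS and RMA per the submitters' processing notes. Which arrays were normalized together, and the software versions, are not given in the sources used here. Groups follow the sample titles, with 2 arrays each. Log2 intensities of the 12 muscle arrays were fitted with limma 3.58.1 in R 4.3.3 as 6 group means with empirical Bayes moderation, so all groups share the estimate of spread. Each gene took its brightest probe set among 34958 with a single symbol, giving 18194 genes. P-values were adjusted by Benjamini-Hochberg over all of them at 0.05. The number of arrays limits the precision. The fit was tested on simulated data. Genes named are B4galnt2 and Dmd, the 20 largest called rises and falls whose arrays do not overlap, up to 4 called members of each of 51 lists of largest change (up to 2 of smallest p where none is called), and every gene called in the test of the difference between backgrounds. Further genes, among them defining markers and uncalled subunits, were chosen after their values were seen. The members and lists were chosen with earlier results of these data known. Alternatives were other scalings, probe set choices, a pseudocount, a filter on dim genes, fewer arrays, an intensity trend, a replicate block and each array left out. Leaving out each transgenic, wild-type, transgenic mdx and mdx array in the comparison across backgrounds was added after seeing the data. Promoters are from the RefSeq table of GRCm38.p6, read up to the gene start.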

Additional observations from a re-analysis of the deposited data

Results flagged for a closer look

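The change made by the transgene differed between mdx and normal muscle in 8 genes by the limma test of that difference, with adjusted p-values from 0.0107 to 0.0429 and 2 arrays per group. The difference, change in mdx minus change in normal muscle on the log2 scale, was -4.70 for Lgals3, -3.13 for Cd84, -2.85 for Ms4a7 and -2.82 for Tyrobp, and all 4 are in the macrophage list. It was 3.21 for Muc15, 2.67 for AF067061, 2.47 for Tcstv1 and 2.20 for Kcnj3. None of the 8 passed with the replicate number as a block or without either wild-type array, and none of the 4 macrophage genes passed without transgenic replicate 1, either transgenic mdx array or either AAV-Galgt2 array. The normal and the mdx mice differ in substrain, as do mdx mice with and without the transgene, and its part in these differences cannot be told apart from those of dystrophin and the transgene.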

How the results depend on the processing

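The 573 calls numbered between 184 and 653 with 1 of the 12 arrays left out. They numbered 365 with the first array set only and 256 with the 4 transgenic and wild-type arrays alone. Without transgenic replicate 2, 79.5% of the calls were higher, against 67.4% of all 573. Under every alternative 102 genes kept their call, 78 higher and 24 lower. Of 111 called named genes 47 kept the call in all 22 alternatives and none reversed, and of 35 uncalled named genes 13 passed in at least 1 of them, Ngp in 5. The 8 calls of the difference between mdx and normal muscle became 15 with equal array medians, 13 with quantile normalization, 18 with a pseudocount of 32, 5 with the mean of a gene's probe sets, 3 with the most variable probe set and 20 with an intensity trend, and 0 to 142 with 1 array left out. For that difference the replicate block gave 0 calls, and for transgenic against wild type 401. Same-numbered transgenic and wild-type arrays deviated together (r = 0.54), while the other group pairs gave -0.44 to 0.18, and with 2 arrays per group and no label for what a number shares, whether the numbers pair the arrays was not settled. The change of Dmd, -0.08 and not called, was 0.25 with the mean of its probe sets, 0.037 with the most variable one, and -0.17 to 0.010 with 1 array left out. That of Slc4a1, a red blood cell marker at 1.67 and not called, was -0.22 to 3.56 with 1 array left out, the lowest without transgenic replicate 1. The falls called in both backgrounds numbered 65, but 34 when mdx replicate 2 or transgenic mdx replicate 1 was left out and 39 when transgenic mdx replicate 2 was, which took the rises to 116, against 184. Beyond the transgenic and wild-type arrays, leaving out some of the other muscle arrays also cost several named genes their call. Smox, St8sia2, Col6a3, Gpd1, Igfbp3 and Ccl5 were among them. The cause was not tested in any of these cases. With 2 arrays per group, changes of single genes could be missed. In the simulated data, 27 of 100 genes given a log2 change of 1 up or down were called. Of 100 genes given a change of 2 there, 82 were called, and of 17994 unchanged genes 7.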

Other observations

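Several gene families, chosen after their values were seen and therefore given no test as families, had single members far above the rest. Counts in these families are to be read against the 2.12% of all genes called higher. Of 44 keratin genes 5 were called higher and the median of the family was -0.18. Krt8, the partner of Krt18 in simple epithelia, read 7.76 and 6.83 in transgenic muscle, against 4.75 and 4.03 in wild type (2.90), and Krt12, a keratin of the cornea, changed by 2.51. Of 8 voltage-gated sodium channel alpha subunits, Scn2a, a channel of neurons, read 9.46 and 9.17 in transgenic, against 6.33 and 6.23 in wild-type muscle (3.04), and Scn3a changed by 2.14, while the family median was -0.35. Among 6 ligands of the epidermal growth factor receptor, Epgn changed by 2.86 and Ereg by 2.43. Among 19 receptors of the tumour necrosis factor family, Tnfrsf23, Tnfrsf22 and Tnfrsf12a changed by 3.05, 2.89 and 1.86. Krt8 and Scn2a kept their call with each of the 12 arrays left out. Krt7 lost its call without any 1 of the 4 transgenic and wild-type arrays and without 6 of the other muscle arrays. Krt80 lost its call without 3 of the 4. Krt12 and Scn3a lost theirs without 2 and 3 of the 4 transgenic and wild-type arrays, Epgn, Tnfrsf12a and Tnfrsf23 without 3, and Ereg and Tnfrsf22 without any 1 of them (adjusted p up to 0.163).

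Some probe sets with no gene symbol or with several were called as well. Of 10092 such probe sets 43 were called higher and 62 lower in a fit of all 45101, in which 836 were called in all. The called fall of smallest p among them read 9.32 and 9.55 in transgenic muscle, against 12.42 and 12.73 in wild type (-3.14 ± 0.24). The called rise of smallest p read 7.42 and 7.27 in transgenic muscle, against 3.64 on both wild-type arrays (3.70 ± 0.21).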
